A study of Mus musculus with 14 samples.

Results

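Interferon-response and class I antigen genes were followed in mouse RNA from blastocyst culture groups, a micromanipulation control and oviduct samples. Values came from every array probe annotated to 9 symbols, Oasl2, Bst2, Ifitm3, Irf1, Psmb8, Psmb9, Psmb10, Tap1 and B2m. They had 17 of the 25697 probes. Of the 9 symbols, 7 had a probe that passed the detection filter and entered a fit over 8669 features, of which 8025 carry a gene symbol (all are called genes below). Oasl2 was well above background only on the HTF/MultiBlast and ISM1/ISM2 arrays. Its excess over oviduct was at least 10.7-fold in ISM1/ISM2 and, in HTF/MultiBlast, at least 2.07-fold. B2m was 6.42-fold higher in ISM1/ISM2 than in oviduct, and Bst2 and Psmb9 were 2.60-fold and 2.51-fold higher there. Psmb9 was also 2.37-fold higher in KSOM(aa) than in oviduct, a difference that was not called. Ifitm3 ran the other way and was lower than in oviduct in both ISM1/ISM2 and HTF/MultiBlast, where it was detected on only 1 of 3 and 2 of 3 arrays. Every KSOM(aa) and micromanipulation control array lay below oviduct for Ifitm3 too. Those log2 differences, -1.27 and -0.85, were not called. Psmb8 and Tap1 were not well above background on any of the 14 arrays.

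The study set blastocysts from several culture settings against oviduct samples on single-colour Illumina bead arrays. The groups were HTF/MultiBlast (3 arrays; cell type multiblastocyst, HTF medium), ISM1/ISM2 (3 arrays; blastocysts cultured in the media ISM1 and ISM2), KSOM(aa) (2 arrays; blastocysts in KSOM(aa) medium), micromanipulation control (3 arrays) and oviduct (3 arrays). Strain, age and embryo number per array are not given in the labels used here, nor whether embryos were pooled. The labels do not say whether MultiBlast names a kind of embryo or a step of culture. They give oviduct as the source without saying whether tissue or embryos recovered from it were used. The study's design text calls the arrays biological replicates, but the 3 micromanipulation controls all carry the same replicate number in their descriptions. The p-values therefore measure the spread between these arrays, which may be partly technical.

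On the oviduct arrays the blastocyst markers Cdx2 and Nanog were detected on 3 of 3 arrays, and Ovgp1, the secreted glycoprotein of oviduct epithelium, on 0 of 3. Median probe intensity was lowest on oviduct replicate 1, at 96.6, and highest on oviduct replicate 2, at 152. Between 8533 and 10188 probes per array were detected, 33.2% to 39.6% of those on the array. Replicates of a group correlated at r = 0.938 to 0.989 across the 8669 genes.

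Interferons are secreted proteins that act through cell-surface receptors, JAK kinases and STAT factors to switch on antiviral genes. Many of the genes they induce belong to class I antigen presentation, in which proteasome fragments of cellular proteins are pumped into the endoplasmic reticulum by the Tap1 and Tap2 transporter and loaded on a class I heavy chain paired with B2m. Early mammalian embryos are known for low class I expression and a limited interferon response. In these bulk samples fewer cells of a kind and less RNA per cell cannot be told apart.

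Markers of the embryo's own lineages moved between the same groups. In ISM1/ISM2 minus oviduct, the trophectoderm factor Elf5 was lower by -3.75 ± 0.37 SE on the log2 scale (limma adjusted p = 1.8e-05) and Gata3 by -0.68 ± 0.22 SE (0.036), while Cdx2, Krt8 and Krt18 were not called. Of primitive endoderm genes, Sox17 was lower by -1.48 ± 0.34 SE (adjusted p = 0.00594) and Pdgfra by -1.21 ± 0.30 SE (0.00992), and Gata6 was higher by 0.58 ± 0.18 SE (0.0323). Sox7, of the same lineage, was detected on 0 of 3 ISM1/ISM2 arrays against 3 of 3 in oviduct (adjusted p = 6.2e-06), and Gata4 was not tested. The epiblast factor Nanog was higher by 1.07 ± 0.21 SE (adjusted p = 0.00279), with Pou5f1 and Sox2 not called. In HTF/MultiBlast minus oviduct, Sox7 was lower by -2.04 ± 0.25 SE (adjusted p = 0.000615), and Nanog (0.81, 0.0411) and Gata6 (0.80, 0.0223) were higher. None of these markers was called in KSOM(aa) or micromanipulation control. Yet Gata6 and Nanog differed from oviduct there by about as much as in HTF/MultiBlast. For Gata6 the differences were 0.92 in KSOM(aa) (limma adjusted p = 0.1) and 0.91 in micromanipulation control (0.0511). For Nanog they were 0.86 (adjusted p = 0.16) and 0.86 (0.0959), so their rise is not particular to the groups with calls. The summed linear signal of the 5 trophectoderm markers spanned 26730 to 33290 in HTF/MultiBlast, 26190 to 34810 in ISM1/ISM2, 26760 to 47790 in KSOM(aa), 35540 to 37420 in micromanipulation control and 33970 to 38450 in oviduct. For the 3 epiblast markers it spanned 3135 to 4293 in HTF/MultiBlast, 4340 to 4690 in ISM1/ISM2, 3359 to 4879 in KSOM(aa), 3692 to 4080 in micromanipulation control and 2264 to 2626 in oviduct. For the 5 primitive endoderm markers it spanned 5847 to 7898 in HTF/MultiBlast, 3896 to 5488 in ISM1/ISM2, 6855 to 8594 in KSOM(aa), 7452 to 8515 in micromanipulation control and 4406 to 6009 in oviduct. The part of lineage makeup in the results below was not tested.

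All levels below are log2 intensities after background correction and quantile normalization, and they are compared between groups within a gene only, since probes differ in brightness. A difference was called at a Benjamini-Hochberg adjusted p under 0.05 in limma, adjusted over 8669 genes within each comparison. The 4 comparisons with oviduct use the same 3 oviduct arrays. Members were chosen with earlier results on these arrays known, so their counts describe the members and are no independent evidence of a direction.

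**Figure D1:**
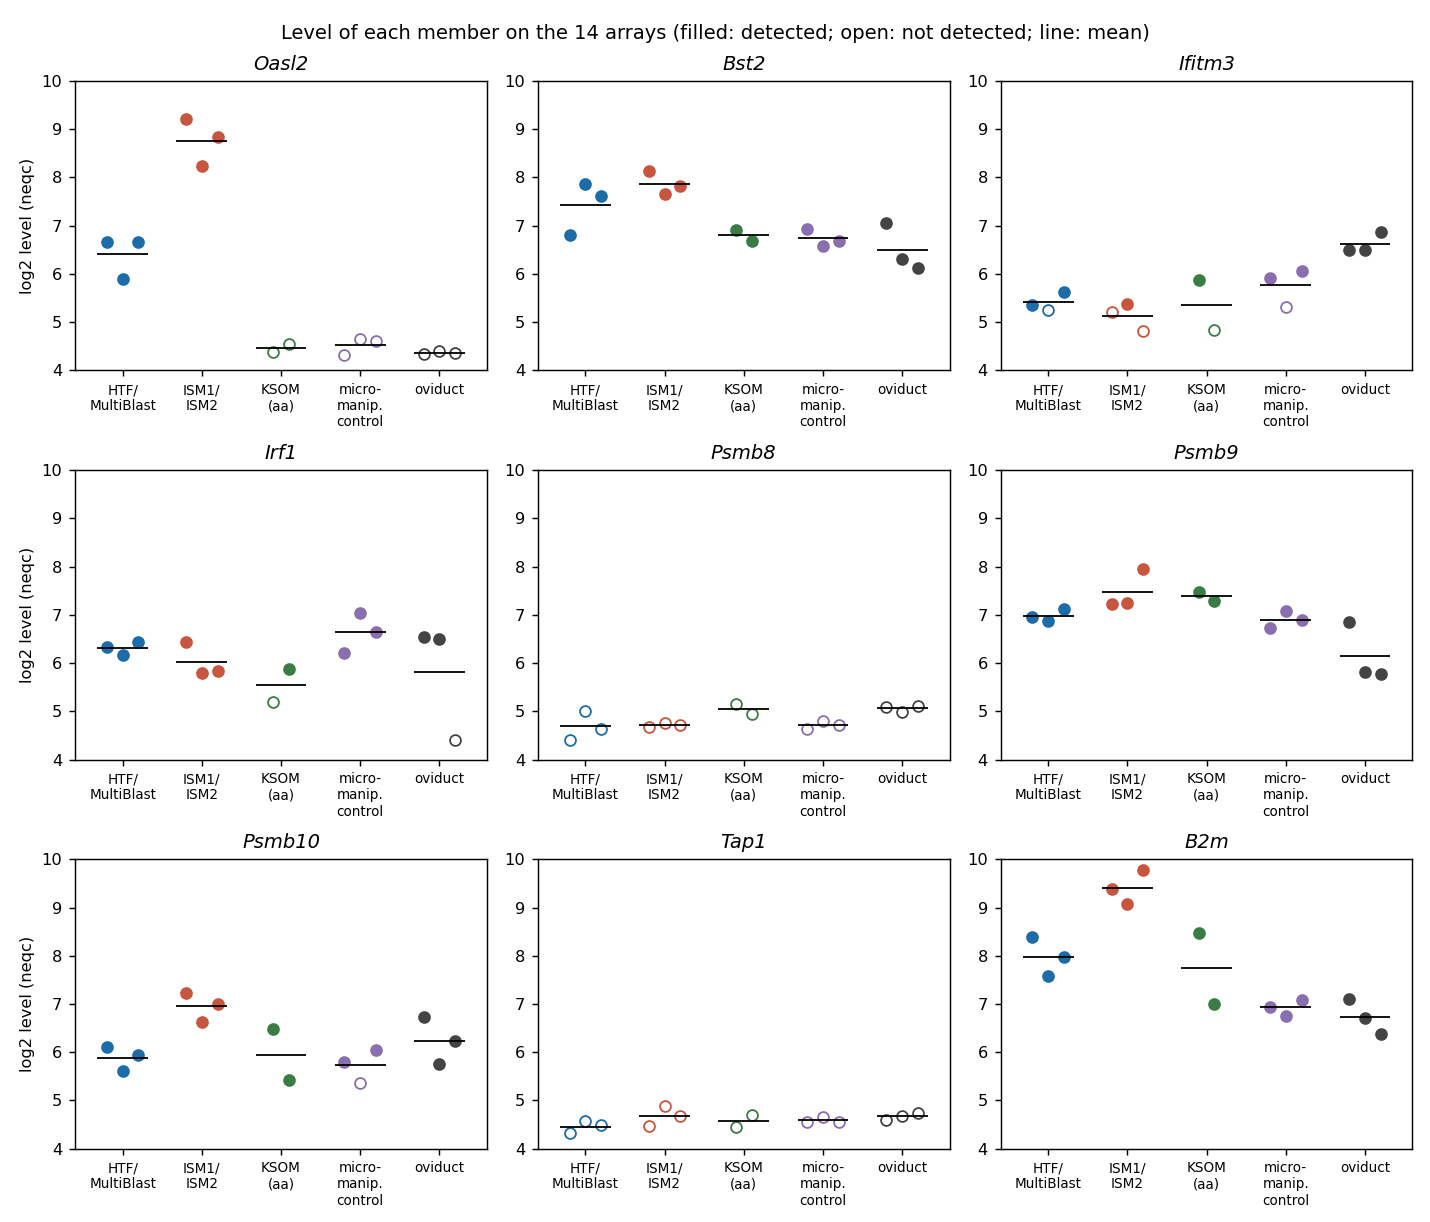
Log2 level of each of the 9 genes (vertical axis) on every array, by group (horizontal axis). Filled points are arrays on which the probe was detected at p under 0.01, open points arrays on which it was not, and lines are group means. Oasl2 is filled on 6 arrays, Psmb8 and Tap1 on none, and the Ifitm3 points of oviduct lie above those of every other group.

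Over the 5 groups together, limma's F test called 5 of the 7 tested members, against 18.5% of all genes. They were Oasl2 (adjusted p = 2.01e-06), B2m (0.000744), Ifitm3 (0.0131), Bst2 (0.02) and Psmb9 (0.0264). Psmb10 had an adjusted p of 0.0666 and Irf1 one of 0.413. Oasl2 passed the detection filter only through the HTF/MultiBlast and ISM1/ISM2 arrays, so it had to differ between groups. Its calls against oviduct, KSOM(aa) and micromanipulation control, counted below, carry the same limit. So does its part in the HTF/MultiBlast and ISM1/ISM2 medians and in their counts of arrays that do not overlap oviduct.

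In HTF/MultiBlast minus oviduct, 3 of the 7 tested members were called, where 6.18% of all genes were. Oasl2 and B2m were higher (3.51% of all genes) and Ifitm3 lower (2.68% of all genes). In ISM1/ISM2 minus oviduct, 5 were called, where 25.8% of all genes were. Oasl2, B2m, Bst2 and Psmb9 were higher (14.3% of all genes) and Ifitm3 lower (11.5% of all genes). In KSOM(aa) minus oviduct limma called 0, with 0.254% of all genes called and 3 members at an unadjusted p under 0.05. In micromanipulation control minus oviduct it called 0, with 0.427% of all genes called and 2 members at an unadjusted p under 0.05. The median difference over the 7 tested members was 0.84 in HTF/MultiBlast, 1.33 in ISM1/ISM2, 0.09 in KSOM(aa) and 0.20 in micromanipulation control, against medians over all genes of 0.03, 0.03, 0.02 and 0.03.

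Arrays of the compared groups did not overlap for 4 of the 7 tested members in HTF/MultiBlast minus oviduct, as for 26.3% of all genes. The same held for 5 members in ISM1/ISM2 minus oviduct (38.2% of all genes), for 2 in KSOM(aa) minus oviduct (19.1%) and for 1 in micromanipulation control minus oviduct (23.9%). Ifitm3 was among them in each of the 4 comparisons. Oasl2 was among them in HTF/MultiBlast and ISM1/ISM2, where this is no result, since it passed the filter through those arrays only.

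**Figure D2:**
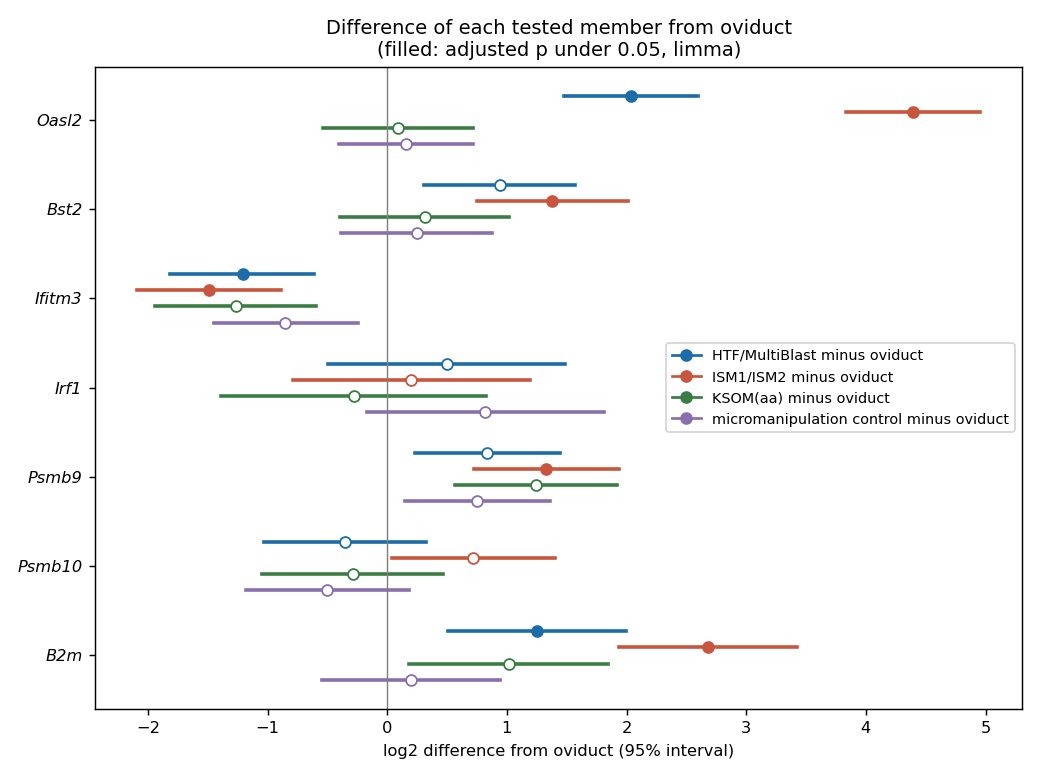
Log2 difference from oviduct (horizontal axis) of the 7 tested members in HTF/MultiBlast, ISM1/ISM2, KSOM(aa) and micromanipulation control, with 95% intervals from limma. Filled points have an adjusted p under 0.05. The ISM1/ISM2 point of Oasl2 is farthest to the right, at 4.40, and the 4 points of Ifitm3 are left of 0.

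Irf1 encodes an interferon-induced transcription factor that in turn binds the promoters of class I and antiviral genes. Only 1 of its 5 probes was detected, on 12 of 14 arrays. Its log2 levels were 6.34, 6.16 and 6.44 on the HTF/MultiBlast arrays, 6.43, 5.79 and 5.83 in ISM1/ISM2, and 5.19 and 5.88 in KSOM(aa). They were 6.21, 7.04 and 6.65 in micromanipulation control and 6.54, 6.49 and 4.41 in oviduct. Oviduct replicate 3 was the lowest array, and every other group overlapped the oviduct range. No comparison of Irf1 was called. The ISM1/ISM2 minus oviduct difference was 0.20 (95% interval -0.79 to 1.19, limma adjusted p = 0.786), and it was -0.50 without oviduct replicate 3. KSOM(aa) minus oviduct was -0.28 (-1.39 to 0.83, adjusted p = 0.881), and its sign turned without oviduct replicate 1 (0.085, adjusted p = 0.964). Micromanipulation control minus oviduct gave 0.82 (-0.17 to 1.81, adjusted p = 0.382). KSOM(aa) minus micromanipulation control had the largest Irf1 difference, -1.10 (-2.20 to 0.01, adjusted p = 0.992), with arrays that did not overlap.

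Oasl2 encodes an oligoadenylate synthetase-like protein of the antiviral response and is a standard interferon-induced gene in mouse. Its log2 levels were 6.67, 5.89 and 6.66 on the HTF/MultiBlast arrays and 9.22, 8.24 and 8.84 on the ISM1/ISM2 arrays. They were 4.38 and 4.54 in KSOM(aa), 4.31, 4.66 and 4.61 in micromanipulation control, and 4.34, 4.41 and 4.36 in oviduct. The probe was detected on 3 of 3 arrays of HTF/MultiBlast and of ISM1/ISM2 and on none of the other 8. The 3 ISM1/ISM2 arrays stood above the 3 HTF/MultiBlast arrays, and both groups stood above the remaining arrays. A second Oasl2 probe was not well above background on any array.

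The filter kept Oasl2 only through HTF/MultiBlast and ISM1/ISM2, so its p-values against the other groups are a description. Its SD was 0.036 in oviduct, at background, against 0.44 in HTF/MultiBlast and 0.49 in ISM1/ISM2. The SE is shared over these unlike spreads. Because the dim groups give only a bound, folds against them are minimum values, taken against the lowest signal detected on the same arrays. By that bound Oasl2 was at least 2.07-fold higher in HTF/MultiBlast than in oviduct (difference of measured means 2.04 ± 0.26 SE on the log2 scale, limma adjusted p = 0.000685). In ISM1/ISM2 it was at least 10.7-fold higher than in oviduct (4.40 ± 0.26 SE, adjusted p = 4.81e-07). Between the cultured groups, the HTF/MultiBlast minus ISM1/ISM2 difference was -2.36 ± 0.26 SE (0.195-fold, adjusted p = 0.000221). Against KSOM(aa), Oasl2 was at least 2.12-fold higher in HTF/MultiBlast (adjusted p = 0.0129) and at least 10.9-fold higher in ISM1/ISM2 (adjusted p = 5.18e-06). Against micromanipulation control the bounds were 2.05-fold for HTF/MultiBlast (adjusted p = 0.00219) and 10.5-fold for ISM1/ISM2 (adjusted p = 7.44e-07).

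The HTF/MultiBlast minus KSOM(aa) call of Oasl2 was lost without HTF/MultiBlast replicate 1 (adjusted p = 0.064), HTF/MultiBlast replicate 3 (0.0741) or KSOM(aa) replicate 2 (0.0684), and under scaling to the 75th percentile (0.142), an offset of 50 (0.0889) or array weights (0.22). The other 6 Oasl2 calls held without any 1 array. KSOM(aa) and micromanipulation control could not be told from oviduct at this signal, since all 3 groups were not well above background.

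Bst2 encodes tetherin, an interferon-induced membrane protein that holds budding virus particles at the cell surface. It was detected on 14 of 14 arrays. Its log2 levels were 6.80, 7.87 and 7.62 in HTF/MultiBlast, 8.14, 7.66 and 7.82 in ISM1/ISM2, and 6.92 and 6.69 in KSOM(aa). They were 6.94, 6.58 and 6.69 in micromanipulation control and 7.05, 6.31 and 6.12 in oviduct. The 3 ISM1/ISM2 arrays stood above all KSOM(aa), micromanipulation control and oviduct arrays, while HTF/MultiBlast replicate 1 fell within the oviduct range. Bst2 was higher in ISM1/ISM2 than in oviduct by 1.38 ± 0.29 SE (2.60-fold, limma adjusted p = 0.00411) and higher than in micromanipulation control by 1.14 ± 0.29 SE (2.20-fold, adjusted p = 0.0172).

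The ISM1/ISM2 minus micromanipulation control call of Bst2 was lost without ISM1/ISM2 replicate 1 (adjusted p = 0.0719) or micromanipulation control replicate 2 (0.0691) or 3 (0.0587). ISM1/ISM2 minus KSOM(aa) was 1.07 (0.36 to 1.77, adjusted p = 0.0518), and HTF/MultiBlast minus oviduct was 0.94 (0.31 to 1.57, adjusted p = 0.0769). The HTF/MultiBlast difference passed without HTF/MultiBlast replicate 1 (adjusted p = 0.0397) or oviduct replicate 1 (0.0282). The ISM1/ISM2 minus KSOM(aa) difference passed without HTF/MultiBlast replicate 1 (adjusted p = 0.0284) or 2 (0.0489), or oviduct replicate 1 (0.0275) or 3 (0.0398). KSOM(aa) minus oviduct was 0.31 (-0.39 to 1.02), and micromanipulation control minus oviduct 0.25 (-0.39 to 0.88).

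Ifitm3 encodes an interferon-induced membrane protein that hinders virus entry from endosomes, and in mouse it is also known as a marker of early germ cells. Its log2 levels were 5.35, 5.25 and 5.63 in HTF/MultiBlast, 5.20, 5.37 and 4.83 in ISM1/ISM2, and 5.86 and 4.84 in KSOM(aa). They were 5.92, 5.32 and 6.07 in micromanipulation control and 6.50, 6.49 and 6.87 in oviduct. The probe was detected on 2 of 3 HTF/MultiBlast arrays, 1 of 3 ISM1/ISM2 arrays, 1 of 2 KSOM(aa) arrays, 2 of 3 micromanipulation controls and 3 of 3 oviduct arrays. Every array outside oviduct lay below every oviduct array.

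Ifitm3 was lower than in oviduct by -1.49 ± 0.28 SE in ISM1/ISM2 (limma adjusted p = 0.00192) and by -1.21 ± 0.28 SE in HTF/MultiBlast (adjusted p = 0.0245). With arrays at background in both groups, the size depends on the background step. It ran from -2.07 on the authors' values to -0.94 with an offset of 50 in ISM1/ISM2, and from -1.59 to -0.79 under the same settings in HTF/MultiBlast. The differences from oviduct were -1.27 (-1.94 to -0.59, adjusted p = 0.129) in KSOM(aa) and -0.85 (-1.45 to -0.25, adjusted p = 0.163) in micromanipulation control, neither of them called. No comparison of Ifitm3 among the other 4 groups was called. The HTF/MultiBlast call was lost without HTF/MultiBlast replicate 1 (adjusted p = 0.097), 2 (0.0716) or 3 (0.0513) or without oviduct replicate 3 (0.0718). It was lost too on the authors' values (adjusted p = 0.0544) and with no detection filter (0.053). KSOM(aa) minus oviduct passed without KSOM(aa) replicate 1 (-1.78, adjusted p = 0.0365). Before background correction the Ifitm3 intensity of oviduct replicate 1 was 112, the lowest of the 14 arrays, and the same array had the lowest median intensity.

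Markers of leukocytes did not move one way. S100a9, a granulocyte protein gene, was lower in each of the 4 groups than in oviduct. It averaged a log2 level of 5.16 in HTF/MultiBlast, 4.34 in ISM1/ISM2, 4.92 in KSOM(aa), 5.20 in micromanipulation control and 6.69 in oviduct, where it was detected on 3 of 3 arrays. Its limma adjusted p against oviduct was 0.00902 in HTF/MultiBlast, 8.19e-05 in ISM1/ISM2, 0.0423 in KSOM(aa) and 0.044 in micromanipulation control. Cd3e, of the T cell receptor complex, was at least 1.41-fold higher in ISM1/ISM2 than in oviduct (difference of measured means 0.90 ± 0.25 SE, adjusted p = 0.0185). It was detected on 3 of 3 ISM1/ISM2 arrays and 0 of 3 oviduct arrays. Cd3e was detected too on 3 of 3 micromanipulation controls, 2 of 2 KSOM(aa) arrays and 1 of 3 HTF/MultiBlast arrays. None of these groups had a call against oviduct (limma adjusted p = 0.27, 0.545 and 0.541). The antigen-presentation genes Cd74 and H2-Ab1 were detected on 1 ISM1/ISM2 array each and on no other array, and Lyz2, a myeloid lysozyme, on 1 oviduct array. Ptprc and S100a8 were at background on every array, as were 5 of the 10 leukocyte markers on the array. The summed leukocyte signal spanned 245 to 254 in HTF/MultiBlast, 266 to 355 in ISM1/ISM2, 237 to 270 in KSOM(aa), 244 to 277 in micromanipulation control and 313 to 658 in oviduct. Of the 10 markers summed, 0 to 1 were detected per HTF/MultiBlast array, 1 to 3 per ISM1/ISM2 array and 1 to 2 per oviduct array. The sums therefore hold much background, and Lyz2 had an SD of 2.13 within oviduct. The part of leukocytes in the Ifitm3 result was not tested.

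Psmb8, Psmb9 and Psmb10 encode the catalytic subunits that turn the standard proteasome into the immunoproteasome, which favours cleavage after residues that class I molecules bind. Psmb8 was not well above background, with log2 levels between 4.41 and 5.15 on the 14 arrays. Psmb9 was detected on all 14. Its log2 levels were 6.95, 6.87 and 7.12 in HTF/MultiBlast, 7.22, 7.25 and 7.95 in ISM1/ISM2, and 7.48 and 7.30 in KSOM(aa). They were 6.72, 7.08 and 6.90 in micromanipulation control and 6.84, 5.82 and 5.77 in oviduct. Oviduct replicate 1 stood well above the other oviduct arrays, and of the other groups only micromanipulation control replicate 1 lay below it.

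Psmb9 was higher in ISM1/ISM2 than in oviduct by 1.33 ± 0.28 SE (2.51-fold, limma adjusted p = 0.00401), and this held without any 1 array. KSOM(aa) minus oviduct was 1.25 (0.57 to 1.92, adjusted p = 0.132), HTF/MultiBlast minus oviduct 0.84 (0.23 to 1.44, adjusted p = 0.0968) and micromanipulation control minus oviduct 0.75 (0.15 to 1.36, adjusted p = 0.201). Each of these 3 passed without oviduct replicate 1, at 1.60 (adjusted p = 0.0195) in KSOM(aa), 1.19 (0.0121) in HTF/MultiBlast and 1.10 (0.0464) in micromanipulation control. Among the groups outside oviduct no Psmb9 comparison was called. ISM1/ISM2 minus KSOM(aa) was 0.08 (-0.59 to 0.76), with arrays that overlapped.

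Psmb10 has 2 probes on the array, detected on 13 and on 12 of 14 arrays. The log2 levels of the brighter were 6.10, 5.60 and 5.94 in HTF/MultiBlast, 7.24, 6.62 and 7.01 in ISM1/ISM2, and 6.48 and 5.42 in KSOM(aa). They were 5.80, 5.36 and 6.05 in micromanipulation control and 6.72, 5.75 and 6.24 in oviduct. On this probe ISM1/ISM2 stood above all HTF/MultiBlast, KSOM(aa) and micromanipulation control arrays but overlapped oviduct, through oviduct replicate 1. On the second probe KSOM(aa) replicate 1 (6.64) lay above ISM1/ISM2 replicate 2 (6.478), while the highest oviduct array was at 6.46. Psmb10 was higher in ISM1/ISM2 than in micromanipulation control by 1.22 ± 0.32 SE (2.33-fold, limma adjusted p = 0.0174), and the second probe gave 1.32 (adjusted p = 0.0225). That call was lost without ISM1/ISM2 replicate 1 (adjusted p = 0.0724) or micromanipulation control replicate 2 (0.0833).

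ISM1/ISM2 minus oviduct was 0.72 for Psmb10 (0.04 to 1.40, adjusted p = 0.111), and it passed without oviduct replicate 1 (0.96, adjusted p = 0.0492). HTF/MultiBlast minus ISM1/ISM2 was -1.07 (-1.75 to -0.39, adjusted p = 0.0576) on the brighter probe and -1.41 (adjusted p = 0.0328) on the second. Without oviduct replicate 1 (adjusted p = 0.0413), KSOM(aa) replicate 1 (0.0294) or KSOM(aa) replicate 2 (0.0294) the brighter probe passed too. ISM1/ISM2 minus KSOM(aa) was 1.01 (0.25 to 1.77, adjusted p = 0.0874) on the brighter probe and 1.03 (adjusted p = 0.124) on the second. The brighter probe gave 1.54 without KSOM(aa) replicate 1 and 0.48 without KSOM(aa) replicate 2. HTF/MultiBlast minus oviduct was -0.35 (-1.03 to 0.33) and micromanipulation control minus oviduct -0.50 (-1.18 to 0.18).

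Tap1 encodes a subunit of the peptide transporter and lies next to Psmb9, which is transcribed away from it out of the same stretch of DNA. Tap1 was not well above background, with log2 levels between 4.32 and 4.89 on the 14 arrays, whereas Psmb9 was detected on all of them. Tap1 and Psmb8 have 1 probe each, and a probe at background does not show that its gene is silent. Of the 3 B2m probes 1 was at background on every array, and so was the only probe of the core proteasome subunit Psma1. The stretch between the RefSeq starts of Psmb9 and Tap1 is shown because only the Psmb9 probe gave a measured signal here. It covers chr17:34187331-34187555 of GRCm38.p6 and is written on the plus strand, with the Psmb9 start at its left end and the Tap1 start at its right end.
Psmb9-Tap1: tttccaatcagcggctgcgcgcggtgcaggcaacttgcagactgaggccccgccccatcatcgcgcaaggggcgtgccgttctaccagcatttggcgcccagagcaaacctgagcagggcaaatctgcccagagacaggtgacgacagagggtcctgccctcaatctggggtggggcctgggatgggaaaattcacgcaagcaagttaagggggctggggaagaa

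B2m encodes beta-2-microglobulin, the light chain that every classical class I molecule needs to reach the cell surface. Of its 3 probes 2 were detected, each on 14 of 14 arrays. The brighter gave log2 levels of 8.38, 7.58 and 7.98 in HTF/MultiBlast, 9.39, 9.06 and 9.77 in ISM1/ISM2, and 8.48 and 7.01 in KSOM(aa). They were 6.93, 6.76 and 7.09 in micromanipulation control and 7.10, 6.71 and 6.38 in oviduct. The ISM1/ISM2 arrays stood above all others, the HTF/MultiBlast arrays above all micromanipulation control and oviduct arrays, and the KSOM(aa) arrays spanned both ranges. On the second probe the KSOM(aa) arrays stood at 8.28 and 7.08, a smaller gap than on the brighter probe.

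B2m was higher in ISM1/ISM2 than in oviduct by 2.68 ± 0.34 SE (6.42-fold, limma adjusted p = 0.000112), and the second probe gave 2.79 (adjusted p = 7.64e-05). It was higher in ISM1/ISM2 than in micromanipulation control by 2.48 ± 0.34 SE (5.59-fold, adjusted p = 0.000294) and than in KSOM(aa) by 1.67 ± 0.39 SE (3.18-fold, adjusted p = 0.0137). The KSOM(aa) difference was 0.93 without KSOM(aa) replicate 2, and its call was lost with array weights (1.55, adjusted p = 0.0577). HTF/MultiBlast minus ISM1/ISM2 was -1.43 ± 0.34 SE (0.372-fold, adjusted p = 0.0242). That call was lost without HTF/MultiBlast replicate 2 (adjusted p = 0.117) or 3 (0.0752) or ISM1/ISM2 replicate 1 (0.0763) or 3 (0.0865). It was lost too with no detection filter (0.0601).

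B2m was also higher in HTF/MultiBlast than in oviduct, by 1.25 ± 0.34 SE (2.38-fold, adjusted p = 0.0481). This call lay close to the threshold and held in 3 of the 14 fits that leave out 1 array, those without oviduct replicate 1, KSOM(aa) replicate 1 or KSOM(aa) replicate 2. Over the 14 the difference spanned 1.05 to 1.45 and the adjusted p 0.0118 to 0.201, and the second probe gave 1.20 (adjusted p = 0.0558). The authors' values gave an adjusted p of 0.0656. HTF/MultiBlast minus micromanipulation control was 1.05 (0.31 to 1.80, adjusted p = 0.157). KSOM(aa) minus oviduct was 1.01 (0.18 to 1.84, adjusted p = 0.308) and 1.75 (adjusted p = 0.0298) without KSOM(aa) replicate 2. Micromanipulation control minus oviduct was 0.20 (-0.54 to 0.94, adjusted p = 0.817).

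**Figure D3:**
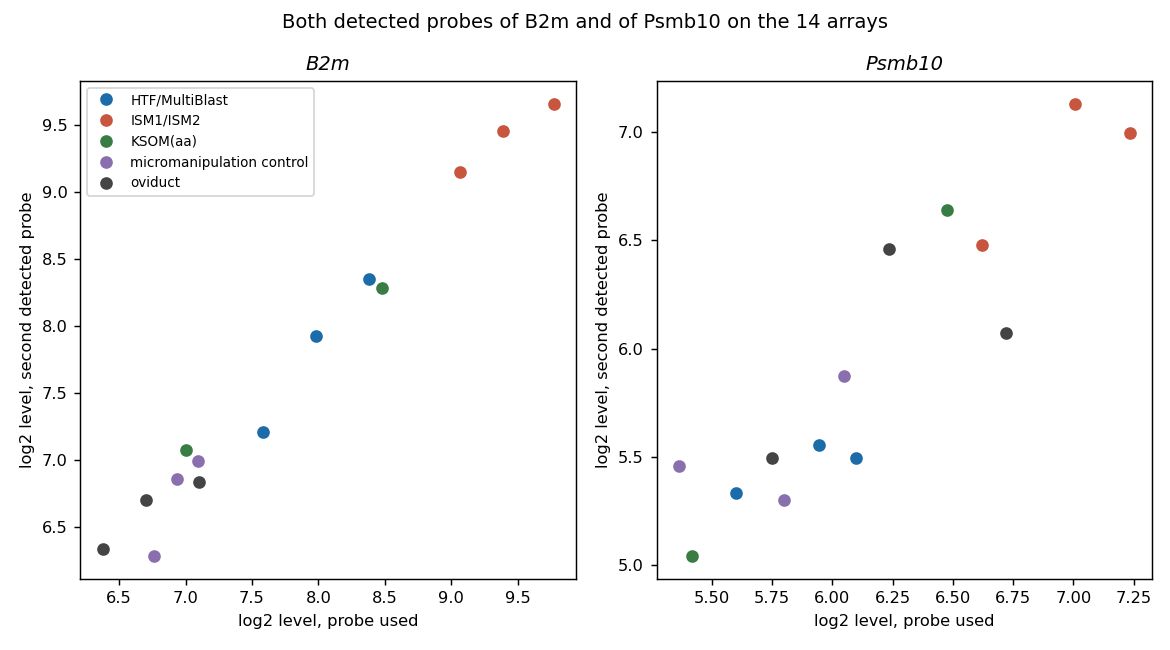
Log2 level of the second detected probe (vertical axis) against the probe used (horizontal axis) for B2m and Psmb10 on the 14 arrays, coloured by group. On both probes of each gene the 3 ISM1/ISM2 arrays are above the 3 HTF/MultiBlast arrays, and the KSOM(aa) arrays are far apart.

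Counted over the members, HTF/MultiBlast minus ISM1/ISM2 called 2 (Oasl2 and B2m, both lower in HTF/MultiBlast), with 7.13% of all genes called. ISM1/ISM2 minus micromanipulation control called 4 (Oasl2, B2m, Bst2 and Psmb10, all higher in ISM1/ISM2), with 16.8% of all genes. ISM1/ISM2 minus KSOM(aa) called 2 (Oasl2 and B2m), with 11.6% of all genes. HTF/MultiBlast minus micromanipulation control and HTF/MultiBlast minus KSOM(aa) each called 1, Oasl2, with 2.33% and 0.265% of all genes. KSOM(aa) minus micromanipulation control called 0 members in limma, with 0% of all genes called and 0 members at an unadjusted p under 0.05.

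By mean level, the order for Oasl2 was ISM1/ISM2, HTF/MultiBlast and then 3 groups at background. The B2m order was ISM1/ISM2, HTF/MultiBlast, KSOM(aa), micromanipulation control and oviduct, in which only the step between ISM1/ISM2 and HTF/MultiBlast passed the test among neighbours. For Bst2 the order was the same as for B2m, and no step between neighbours passed. Psmb9 ran ISM1/ISM2, KSOM(aa), HTF/MultiBlast, micromanipulation control and oviduct, again with no neighbours that differed at the threshold.

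Oviduct replicate 1 was the highest oviduct array for B2m, Bst2, Psmb9, Psmb10 and Irf1, and it was the dimmest of the 14 arrays by median intensity. The part of array brightness in these levels was not tested. Without that array, ISM1/ISM2 minus oviduct was 2.87 for B2m (limma adjusted p = 0.000255), 1.66 for Bst2 (0.00144), 1.68 for Psmb9 (0.000323), 0.96 for Psmb10 (0.0492) and 0.56 for Irf1 (0.427). HTF/MultiBlast minus oviduct without it was 1.44 for B2m (adjusted p = 0.0458) and 1.22 for Bst2 (0.0282). KSOM(aa) replicate 1 was above replicate 2 for B2m, Bst2, Psmb9, Psmb10 and Ifitm3 and below it for Irf1.

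Across the 14 arrays, as a description of points that share groups and scaling, Oasl2 correlated with B2m at r = 0.893 and with Bst2 at 0.811. B2m correlated with Bst2 at 0.783, with Psmb9 at 0.73 and with Psmb10 at 0.727. Ifitm3, detected on 9 of 14 arrays, ran against Psmb9 (-0.795), Oasl2 (-0.604), B2m (-0.604) and Bst2 (-0.602) but not against Psmb10 (-0.011). Irf1 stayed between -0.252 and 0.181 with every other tested member. Of all genes with a symbol, the 4 whose levels correlated best with Oasl2 were Actn2 (r = 0.975), Casp14 (0.971), Mboat1 (0.966) and Dph3 (0.965). For B2m they were Fam3b (0.976), Thyn1 (0.957), Crygs (0.954) and Timm8a2 (0.949), each over 14 arrays.

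Interferon-regulated promoters often carry an interferon-stimulated response element or a gamma-activated site, and class I promoters a kappa B site beside the response element. RefSeq promoters of build GRCm38.p6 were found for 9 of 9 members (10 entries, with 2 for Irf1), and the 250 bases before each start were searched on both strands. The response element was spelled GAAANNGAAA and the gamma-activated site TTCNNNGAA, and the kappa B site was searched by its consensus. Of 32851 promoters in the table, 2.98% held the first, 7.02% the second and 7.25% a kappa B consensus. Promoters of B2m and Bst2 are shown because they hold response elements, and that of Oasl2 because it had the largest difference and holds none. The windows of Psmb9 and Psmb10, whose means were also highest in ISM1/ISM2, hold no match either. Capitals mark motif matches.
B2m (chr2:122147437-122147686, plus strand): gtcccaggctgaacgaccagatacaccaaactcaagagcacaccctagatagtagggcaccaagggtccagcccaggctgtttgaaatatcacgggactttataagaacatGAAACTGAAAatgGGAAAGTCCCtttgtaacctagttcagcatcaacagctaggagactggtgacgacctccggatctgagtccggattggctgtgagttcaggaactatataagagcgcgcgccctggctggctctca
Bst2 (chr8:71537473-71537722, minus strand): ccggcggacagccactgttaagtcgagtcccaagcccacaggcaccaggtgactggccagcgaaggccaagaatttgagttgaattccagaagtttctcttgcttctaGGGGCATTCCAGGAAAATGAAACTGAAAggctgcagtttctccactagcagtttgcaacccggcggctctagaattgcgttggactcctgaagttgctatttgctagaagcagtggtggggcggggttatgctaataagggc
Oasl2 (chr5:114896684-114896933, plus strand): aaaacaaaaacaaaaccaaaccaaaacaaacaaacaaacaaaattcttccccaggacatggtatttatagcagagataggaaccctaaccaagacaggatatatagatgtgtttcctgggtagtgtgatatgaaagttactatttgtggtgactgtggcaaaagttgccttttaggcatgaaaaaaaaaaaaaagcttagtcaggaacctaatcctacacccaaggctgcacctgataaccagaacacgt

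B2m held 1 response element, GAAACTGAAA, from 139 to 130 bases before the start, and a kappa B match, GGAAAGTCCC, from 126 to 117. Bst2 held 2 response elements that overlap each other, GAAAATGAAA and GAAACTGAAA, from 130 to 121 and from 124 to 115 bases before the start. A gamma-activated site (TTCCAGGAA, 136 to 128) and a kappa B match (GGGGCATTCC, 142 to 133) overlapped there too. The Oasl2 window held none of the 3 spellings, which says only that these letters are not in this window. Of the other members, Psmb8 and the first Irf1 entry each held 1 gamma-activated site (97 to 89 and 90 to 82 bases before the start). That Irf1 entry and Ifitm3 each held 1 kappa B match (13 to 4 and 116 to 107). Psmb9, Psmb10 and Tap1 held no match, and a match describes letters, not a bound site.

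Around the members, 10 lists of the interferon and class I pathway held 128 symbols, of which 115 were on the array, 51 were detected on 0 of 14 arrays and 59 were tested. A symbol detected on 0 arrays may be silent or read by a failing probe, which cannot be told apart here. In HTF/MultiBlast minus oviduct 2 were higher and 1 lower, and in ISM1/ISM2 minus oviduct 11 were higher and 6 lower. The 17 of 59 called in ISM1/ISM2 and the 3 of 59 in HTF/MultiBlast lie near the 25.8% and 6.18% called among all genes. In KSOM(aa) and in micromanipulation control minus oviduct limma called 0, with 7 and 9 at an unadjusted p under 0.05.

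Ligands and receptors came first in the pathway. Probes for the interferons Ifnb1, Ifna4, Ifng and Ifnz and for the receptor chain Ifnar1 were detected on no array. Of 5 tested receptor chains, Ifnlr1, the specific chain of the type III interferon receptor, was higher than in oviduct. It was at least 1.42-fold higher in HTF/MultiBlast (limma adjusted p = 0.0328) and at least 1.21-fold higher in ISM1/ISM2 (adjusted p = 0.028), with 0 of 3 oviduct arrays detected. In micromanipulation control it was at least 1.25-fold higher without a call (adjusted p = 0.126). The difference of measured means in KSOM(aa) was 0.66 (adjusted p = 0.459), so the rise was not particular to the groups with calls. Ifngr2, a chain of the type II receptor, was lower in HTF/MultiBlast than in oviduct by -2.29 ± 0.56 SE (adjusted p = 0.0305), with oviduct arrays that had an SD of 1.48. The Ifngr2 call and both Ifnlr1 calls were lost without oviduct replicate 1 or 3. The HTF/MultiBlast calls were also lost without any of its 3 arrays, and the ISM1/ISM2 call of Ifnlr1 without ISM1/ISM2 replicate 1 or 3, at adjusted p of 0.0523 to 0.11 in all these fits. Under 75th percentile scaling both Ifnlr1 calls were lost, at adjusted p of 0.259 in HTF/MultiBlast and 0.276 in ISM1/ISM2. Il10rb and Ifngr1 were not called in any comparison with oviduct.

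Of 9 tested JAK-STAT and IRF factors, 4 were lower in ISM1/ISM2 than in oviduct and 0 higher (11.5% of all genes were lower and 14.3% higher), with a median difference of -0.50 against 0.03 over all genes. Socs3, the feedback inhibitor of cytokine receptors, was lower by -2.69 ± 0.38 SE (adjusted p = 0.000279), and Stat3, which acts downstream of cytokines of the interleukin-6 family, by -2.21 ± 0.48 SE (adjusted p = 0.00439). Jak1, a kinase of all interferon receptors, was lower by -0.93 ± 0.26 SE (adjusted p = 0.0176), a call lost without ISM1/ISM2 replicate 1 (0.0817) or oviduct replicate 3 (0.0574). The interferon-signalling factors Irf3 and Jak2 had differences of -0.23 ± 0.19 SE and 0.76 ± 0.28 SE there (adjusted p = 0.419 and 0.0621). Irf7, the inducible master regulator, and Nlrc5, the activator of class I genes, were detected on 0 arrays.

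Of 5 tested nucleic acid sensors and adaptors 0 were called in the 4 comparisons with oviduct. Mavs, the mitochondrial adaptor of RNA sensors, differed by 0.32 ± 0.20 SE in ISM1/ISM2 (limma adjusted p = 0.278), and Tbk1, the kinase below it, by 0.35 ± 0.34 SE (adjusted p = 0.491). Ddx58, Ifih1 and Tlr3, sensors of foreign RNA, were detected on 0 arrays.

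Among interferon-stimulated effectors other than the members, 31 were on the array, 19 were detected on 0 arrays, and 10 were tested. Mx1, Ifit1, Ifit3, Usp18, Oasl1, Oas1a, Oas1b, Oas2 and Oas3 were among the 19, and Isg15 and Rsad2 were detected on 1 array each. Of the 10 tested, 4 were higher in ISM1/ISM2 than in oviduct and 0 lower, with a median difference of 0.25, where 14.3% of all genes were higher and 11.5% lower. Oas1e and Oas1d, of the mouse Oas1 cluster, were higher by 2.77 ± 0.44 SE (adjusted p = 0.000585) and 2.43 ± 0.40 SE (adjusted p = 0.000867). They were listed here by family, and whether interferon induces them in these samples was not tested. Ifi27 was higher by 1.58 ± 0.26 SE (adjusted p = 0.000763), with 1 of 3 oviduct arrays detected. Its differences were 0.83 in KSOM(aa), 0.89 in micromanipulation control and 0.17 in HTF/MultiBlast, none called (limma adjusted p = 0.265, 0.125 and 0.747). In HTF/MultiBlast minus oviduct, Oas1e and Oas1d had differences of 1.51 ± 0.44 SE and 1.27 ± 0.40 SE (adjusted p = 0.0585 and 0.0821). In KSOM(aa) they had 1.41 and 0.66 (limma adjusted p = 0.262 and 0.582), and in micromanipulation control 0.49 and 0.06 (0.608 and 0.957). Irgm1 and Trim25, bright on all arrays, differed by 0.16 ± 0.34 SE and 0.35 ± 0.28 SE in ISM1/ISM2 minus oviduct (adjusted p = 0.771 and 0.385). The Oas1 genes are close copies of each other, and their probe letters were not used here, so signal shared between copies could not be checked.

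**Figure D4:**
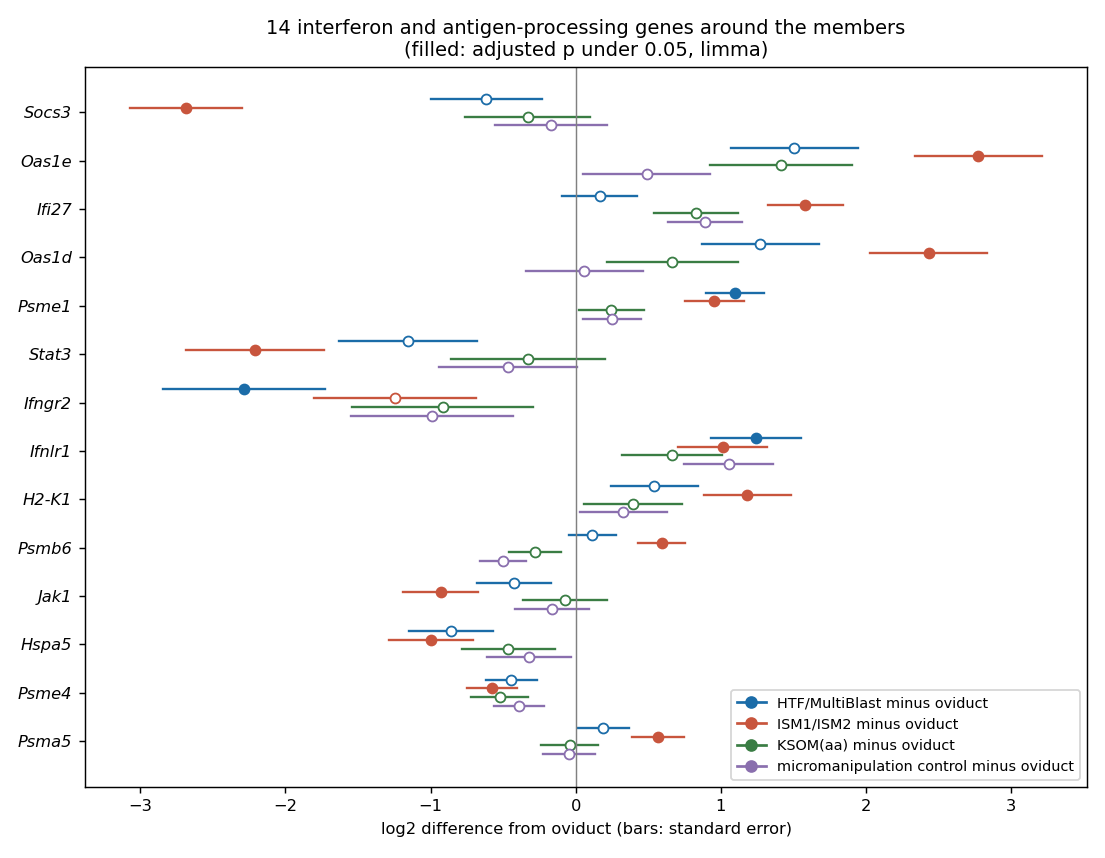
Log2 difference from oviduct (horizontal axis, bars give the standard error) in HTF/MultiBlast, ISM1/ISM2, KSOM(aa) and micromanipulation control for the 14 pathway genes with the smallest p among those called. Filled points have an adjusted p under 0.05 in limma. Oas1e, Oas1d and Ifi27 lie to the right and Socs3, Stat3 and Jak1 to the left in ISM1/ISM2.

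Ifitm2, the only other Ifitm gene tested, was not called in any comparison with oviduct. It differed from oviduct by 0.26 ± 0.43 SE in HTF/MultiBlast (limma adjusted p = 0.773) and by 0.03 ± 0.43 SE in ISM1/ISM2 (adjusted p = 0.965), with standard errors wider than those of Ifitm3. The probes of Ifitm1, Ifitm5 and Ifitm6 were detected on 0 arrays.

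The class I heavy chains that pair with B2m gave 1 call among 8 tested. H2-K1, a classical heavy chain, was higher in ISM1/ISM2 than in oviduct by 1.18 ± 0.30 SE (limma adjusted p = 0.0112), and the call was lost without ISM1/ISM2 replicate 1 (adjusted p = 0.0561). H2-D1, also a classical chain, differed by -0.63 ± 0.25 SE there (adjusted p = 0.0842) and by 0.02 ± 0.25 SE in HTF/MultiBlast (adjusted p = 0.975). H2-Bl differed by 0.37 ± 0.46 SE in ISM1/ISM2 (adjusted p = 0.595). Heavy chain genes are near copies too, and their values carry the same limit as those of the Oas1 genes.

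For peptide supply, Psme1, the interferon-inducible activator subunit of the proteasome, was higher than in oviduct by 1.10 ± 0.20 SE in HTF/MultiBlast (limma adjusted p = 0.00683) and by 0.96 ± 0.20 SE in ISM1/ISM2 (adjusted p = 0.0037), and both calls held without any 1 array. Its partner Psme2 was detected on 0 arrays. Psme4, an activator known from nuclei and testis, was lower in ISM1/ISM2 by -0.58 ± 0.17 SE (adjusted p = 0.0262), a call lost without any ISM1/ISM2 array or without oviduct replicate 2 or 3 (adjusted p up to 0.0752). Under scaling to the 75th percentile it was -0.245 (adjusted p = 0.476). Psme3 differed by -0.09 ± 0.35 SE (adjusted p = 0.879).

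Of the standard catalytic subunits that the immunoproteasome replaces, Psmb6, the counterpart of Psmb9, was higher in ISM1/ISM2 than in oviduct by 0.59 ± 0.16 SE (limma adjusted p = 0.0157). Psmb7, the counterpart of Psmb10, differed by 0.36 ± 0.28 SE (adjusted p = 0.369) and Psmb5, the counterpart of Psmb8, by 0.11 ± 0.26 SE (adjusted p = 0.79). The Psmb6 call was lost without ISM1/ISM2 replicate 2 (adjusted p = 0.0602) or oviduct replicate 2 (0.053). Of 10 other core subunits 3 were higher in ISM1/ISM2 and 0 lower, a count too small to set apart from the 14.3% of all genes that were higher, among them Psma5 by 0.57 ± 0.18 SE (adjusted p = 0.0321). The Psma5 call was lost without any ISM1/ISM2 array or oviduct replicate 1 or 3 (adjusted p up to 0.117). Psma2 and Psma3 had differences of 0.23 ± 0.15 SE and -0.07 ± 0.15 SE (adjusted p = 0.293 and 0.785).

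In peptide loading, Tap2, Canx and Erap1 joined Tap1 at 0 arrays detected. Hspa5, the main chaperone of the endoplasmic reticulum, was lower in ISM1/ISM2 than in oviduct by -1.0 ± 0.29 SE (limma adjusted p = 0.0217), a call lost without ISM1/ISM2 replicate 1 (0.0989) or 2 (0.0749) or oviduct replicate 3 (0.0712), or under 75th percentile scaling (0.082). Pdia3 and Tpp2, a disulfide isomerase of the loading complex and a cytosolic peptidase, differed by -0.10 ± 0.29 SE and -0.12 ± 0.24 SE (adjusted p = 0.839 and 0.753).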

How the data were processed

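The authors deposited probe intensity and a detection p-value for each of 25697 probes on 14 arrays, per the file headers, and a second table of log2 values deposited by the authors that ranks probes as the intensity does and has the same median on every array. BeadStudio 3.2, lumi and RMA are named in the submitters' processing notes, and the background step is not given in the sources used here. Intensities were corrected and quantile normalized with neqc in limma 3.58.1 (R 4.3.3), with background inferred from detection p-values and an offset of 16. Probes detected at p under 0.01 on at least 2 arrays were kept, and the brightest kept probe of a symbol was used. A group-means model over 5 groups was fitted with limma, with p-values adjusted by Benjamini-Hochberg over 8669 genes per comparison. The code was tested on simulated data. Of all probes, 23978 had 1 symbol and 1719 none in the platform annotation.

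The members, pathway lists and tests were chosen with earlier results of these data known. All members are named. Pathway genes are named where they passed in a comparison with oviduct, up to 14 by smallest p, with up to 2 others of highest mean per list. The likeness list gives the 4 best correlated genes. The number of arrays limits precision. Alternatives were the authors' values, scaling to the 75th percentile, an offset of 50, no filter, detection on every array, a row per probe, array weights, a replicate block, only the groups compared, and leaving out each array. The main fit did not pair arrays by replicate number. Deviations of same-numbered arrays from their group means had r over 0.1 in 8 of 26 pairs (range -0.358 to 0.427). Arrays with different numbers were not compared in this way, so these values cannot settle whether numbers pair samples.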

Additional observations from a re-analysis of the deposited data

How the results depend on the processing

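The number of members called was recomputed under each alternative. Over the fits that leave out 1 array it spanned 4 to 6 in the F test (5 as reported), 1 to 5 in HTF/MultiBlast minus oviduct (3), 5 to 6 in ISM1/ISM2 minus oviduct (5), 0 to 1 in KSOM(aa) minus oviduct (0), 0 to 1 in micromanipulation control minus oviduct (0) and 7 to 13 over the 6 comparisons among the other groups (10). The 5 in HTF/MultiBlast came without oviduct replicate 1. With no detection filter the F test called 3 and HTF/MultiBlast minus oviduct 1. With detection required on every array, which leaves out Oasl2, Ifitm3, Psmb10 and Irf1, the counts were 3 in the F test, 1 in HTF/MultiBlast, 3 in ISM1/ISM2 and 5 over the 6 comparisons. HTF/MultiBlast had 1 call on the authors' values and 5 with array weights, and micromanipulation control had 1 with array weights. Calls over all genes moved too: HTF/MultiBlast had 407 on the authors' values and 993 with array weights (536 as reported), micromanipulation control 490 with array weights (37), and KSOM(aa) 286 without KSOM(aa) replicate 2 (22). Causes not shown by fewer genes were not tested. The replicate block gave 6 in the F test, 3 in HTF/MultiBlast, 6 in ISM1/ISM2, 0 in KSOM(aa), 0 in micromanipulation control and 12 over the 6 comparisons, and it added calls of Psmb10 only (ISM1/ISM2 minus oviduct at 0.72, limma adjusted p = 0.0184). For single members, 829 of 906 recomputed values kept direction and side of the threshold, 39 lost a call, 27 gained one and 11 changed sign. The sign changes were all in differences that passed nowhere. They were Oasl2 in KSOM(aa) and in micromanipulation control minus oviduct, each -0.229 under 75th percentile scaling, Psmb10 in KSOM(aa) (0.01) and Irf1 in ISM1/ISM2 (-0.225) with array weights, and fits without 1 array. Those spanned -0.818 to 0.24 for Psmb10 in KSOM(aa), and for Irf1 -0.202 to 0.862 in HTF/MultiBlast, -0.499 to 0.564 in ISM1/ISM2 and -0.979 to 0.085 in KSOM(aa). Of 361 values for pathway genes, 312 kept their call and 49 lost it. Signal near background limits Oasl2 outside HTF/MultiBlast and ISM1/ISM2, Ifitm3 outside oviduct, and Psmb8 and Tap1 throughout.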
